A study of Mus musculus with 4 samples.

Results

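The cells described here are intermediate progenitors outside mitosis of the mouse cerebral cortex. Members were chosen by their own counts. A barcode was selected if it held at least 2 counts of Eomes, at most 1 count of the mitotic genes Mki67, Top2a and Cenpf together, at most 1 of the interneuron genes Dlx1 and Dlx2 together and at most 1 of Reln, a marker of Cajal-Retzius cells. This selected 625 of the 7210 barcodes kept in 4 libraries of single-cell RNA sequencing. Each library came from the trypsin-dissociated cortex of 1 mouse: a wild type (WT) and a library labelled TSK knockout (KO) from the embryo (E14.5), and a wild type and a TSK knockout on the day of birth (P0). TSK is Tsukushi, a secreted small leucine-rich proteoglycan encoded by Tsku. The sources used here do not give the strain, the structure of the knockout allele or the cortical areas taken. No group has a second mouse, so genotype labels are set side by side for 1 animal each, and intervals reflect counting error alone.

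Intermediate progenitors, also called basal progenitors, arise from radial glia and sit in the subventricular zone, where most of them divide to give rise to glutamatergic neurons. They are marked by Eomes (Tbr2), a T-box transcription factor. As a cell moves from radial glia towards a neuron, Notch effectors such as Hes5 are turned down and the proneural factor Neurog2 is followed by Neurod1 and the Nhlh factors. The deep layers of the cortex are made first and the upper layers later, so embryonic and newborn progenitors stand at different points of this series.

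In the order E14.5 wild type, library labelled E14.5 knockout, P0 wild type and P0 knockout, which is kept for every series of 4 values, 620, 4107, 1047 and 1436 barcodes were kept. Their median depths were 7346, 2829, 4807 and 5060 counts, and the members held 426593, 1166767, 470100 and 559595 counts in all. Tsku, the targeted gene, had 54, 74, 42 and 0 counts over all kept barcodes. Scaled to a fixed total of the kept counts, these came to 9.63, 5.14, 6.95 and 0 CPM. Tsku was thus lower under the E14.5 knockout label than in E14.5 wild type, but still present. The library labelled E14.5 knockout, unlike that of the P0 knockout, therefore goes against its label. It is named by its label throughout, and no difference it enters can be read as an effect of the loss of Tsku. It was also the one library with many Xist counts (3, 6707, 0 and 1) and almost none of Ddx3y (496, 1, 666 and 1183). Sex and label thus cannot be told apart at E14.5. Between 0 and 2 barcodes were shared by any pair of libraries, and no member was shared.

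Members made up between 7.17% and 9.68% of the kept barcodes of a library. There were 60 members in E14.5 wild type, or 9.68% (exact binomial 95% interval 7.47% to 12.3%). Of the barcodes labelled E14.5 knockout, 372 were members, or 9.06% (8.20% to 9.98%). P0 wild type held 90, or 8.60% (6.97% to 10.5%), and P0 knockout 103, or 7.17% (5.89% to 8.63%). Median depths of the members were 6008, 2717, 4566 and 4877 counts, so the rule asked for Eomes at different depths. With every barcode thinned to 1500 counts before the same rule was applied, the shares were 9.05%, 7.92%, 5.26% and 4.95%, and both P0 shares lay below both E14.5 shares. Thinning left out 1, 141, 1 and 1 barcodes that were shallower than 1500 counts.

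**Figure D1:**
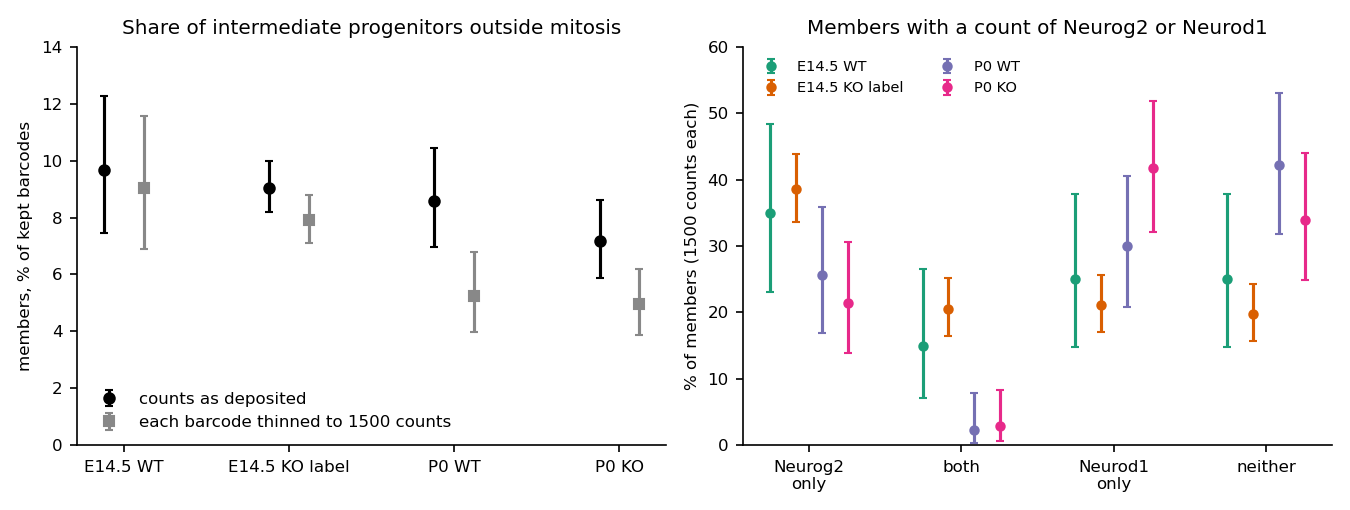
Left: percent of kept barcodes that are members in each library, from all counts and after thinning to 1500 counts, with exact binomial 95% intervals. Right: percent of thinned members with counts of Neurog2, Neurod1, both or neither. The shares run from 7.17% to 9.68% with all counts and from 4.95% to 9.05% after thinning, and members with both factors are 15.0% and 20.6% of the E14.5 members against 2.22% and 2.91% of the P0 members.

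The edges of the rule were well filled. The median member held 21, 6, 6 and 6 Eomes counts, and 5, 42, 18 and 23 members sat exactly at the lower limit of 2 counts. Just outside it, 5, 108, 20 and 31 barcodes met the other gates with exactly 1 Eomes count. For the mitotic genes, 52, 319, 85 and 93 members had 0 counts and 8, 53, 5 and 10 had 1, while 3, 14, 4 and 4 barcodes with Eomes failed with exactly 2. In cells with at least 4 Dlx1 and Dlx2 counts, interneuron-lineage cells that should lack Eomes, 0 of 104, 8 of 487, 1 of 142 and 3 of 145 had at least 2 Eomes counts. That is at most 3.48% in E14.5 wild type, where none was seen, and 1.64%, 0.704% and 2.07% in the others, at median depths of 6187, 2877, 4748 and 4481 counts. Each of these shares lay below the member share of the same library.

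The label was checked against its 4 markers. Eomes, used by the rule, stood at 2881, 2556, 1612 and 1501 CPM (counts of a gene scaled to a fixed total of the summed member counts). Neurog2, the proneural factor that starts the neuronal programme, stood at 764, 1163, 528 and 293 CPM. Neurod1, the factor that follows it, stood at 516, 560, 313 and 697 CPM. Nhlh1, a bHLH factor of the same step, was at 93.8, 173, 19.1 and 75.1 CPM. All 4 were thus present in every library, but Nhlh1 rested on 9 counts in P0 wild type. Mki67 stayed at 4.69, 21.4, 0 and 8.93 CPM, as the rule requires.

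Other genes of the intermediate progenitor list were present in every library. Btg2, an antiproliferative factor of neurogenic divisions, stood at 382, 584, 340.4 and 297 CPM. Insm1, a zinc-finger factor needed to form basal progenitors, stood at 368, 536, 447 and 336 CPM. Hes6, a Hes family member that opposes Hes1, was at 410.2, 309, 243 and 293 CPM. None of these 3 separated the ages beyond the spread of the 2 libraries of each (edgeR adjusted p 0.165, 0.605 and 0.321). Sstr2, a somatostatin receptor of these cells, did not pass either (adjusted p 0.843), at 225, 306, 289 and 318 CPM. Mfap4, an extracellular matrix gene, stood at 150, 194, 106 and 172 CPM. The vesicular glutamate transporter gene Slc17a6 was at 312, 380, 385 and 322 CPM, and Rnd2, a small GTPase that Neurog2 acts through in migration, at 326, 447, 506 and 500.4 CPM.

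**Figure D2:**
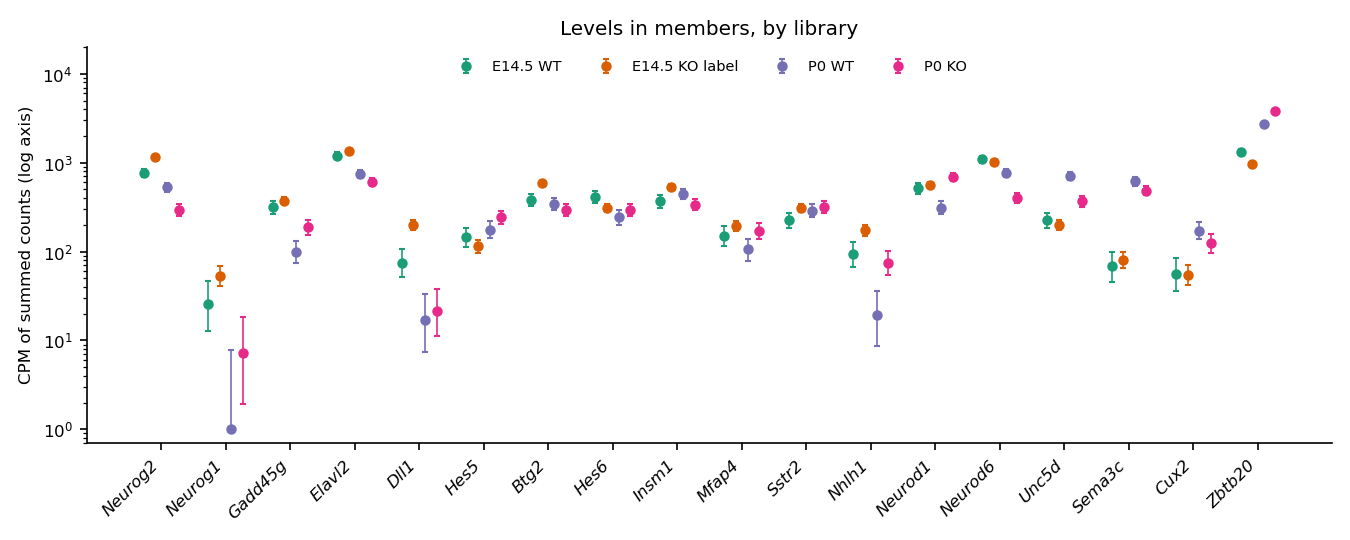
CPM of summed member counts (log axis) for 18 genes in the 4 libraries, with exact Poisson 95% intervals, and levels of 0 drawn at 1 CPM. Sema3c, Unc5d, Cux2 and Zbtb20 lie higher in both P0 libraries than in both E14.5 libraries, and Neurog2, Neurog1, Gadd45g, Elavl2 and Dll1 lie lower.

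Markers of interneurons, Cajal-Retzius cells, glia, vessels, choroid plexus and blood were low but not absent among the members. Genes of newborn projection neurons were not low. Their list came to 14789 CPM in the members of E14.5 wild type and 16393 CPM in those of the library labelled E14.5 knockout. The newborn Neurod1 cells of these libraries, described below, held 28983 and 27230 CPM of it. Summed over each list, interneuron markers came to 60.9, 118, 78.7 and 85.8 CPM and Cajal-Retzius markers to 49.2, 70.3, 34.0 and 182 CPM. Of the 7 Cajal-Retzius genes, only 1, Calb2, had counts in P0 wild type, and 2 had counts in P0 knockout. In P0 knockout, Calb2 held 95 counts in the members with a Prox1 count, described below, and 6 in the other members. Astrocyte markers came to 178, 267, 470.1 and 613 CPM and oligodendrocyte markers to 4.69, 27.4, 140.4 and 125 CPM, with both P0 libraries above both E14.5 libraries. Microglia markers stayed between 2.13 and 45.4 CPM and vascular markers between 17.9 and 74.6 CPM. Choroid plexus markers were at 60.9 and 146 CPM at E14.5 and at 0 and 1.79 CPM at P0. Erythroid genes were at 96.1, 624, 183 and 413 CPM, higher in both libraries that carry a knockout label.

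Members differed among themselves in the factors that order the lineage. After thinning to 1500 counts, Neurog2 without Neurod1 was counted in 35.0%, 38.6%, 25.6% and 21.4% of members. Neurod1 without Neurog2 was counted in 25.0%, 21.1%, 30% and 41.7%. Both were counted in 15.0%, 20.6%, 2.22% and 2.91%, and neither in 25.0%, 19.7%, 42.2% and 34.0%. The share with both was thus higher in both E14.5 libraries than in both P0 libraries at the same depth per cell. With all counts it was 38.3%, 36.0%, 17.8% and 27.2%.

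The genes that went with each state can be described but not tested, since the states were set by counts of the same cells. Hes5, a Notch effector of radial glia, stood at 363, 254, 564 and 653 CPM in members with Neurog2 only and at 0, 4.95, 6.98 and 21.9 CPM in members with Neurod1 only. Ccnd2, the cyclin D of basal progenitors, stood at 1446, 1405, 1978 and 1509 CPM against 379.8, 713, 342 and 533 CPM. Gadd45g, a growth-arrest gene, was at 588, 612, 244 and 297 CPM against 174, 144, 6.98 and 131 CPM. These 3 genes were higher with Neurog2 only in every library. The opposite held for Tubb3, a neuronal tubulin, at 449, 979, 657 and 1022 CPM against 1646, 2089.7, 1786 and 2348 CPM. Dcx, the microtubule protein of migrating neurons, stood at 647, 710.0, 825 and 1117 CPM against 1899, 1852, 2100.4 and 1949.97 CPM. Unc5d, a netrin receptor of the multipolar stage, stood at 72.6, 78.1, 345 and 154 CPM against 364, 426, 893 and 503 CPM.

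The rule removed mitotic counts but used no S-phase gene, and a minority of members held 5 or more counts of S-phase genes after thinning. Of the thinned members, 5%, 13.3%, 8.89% and 12.6% had at least 5 counts of the S-phase list. Among newborn neurons, taken as cells with at least 2 Neurod1 counts and at most 1 Eomes count under the same other gates, the shares were 1.59%, 1.40%, 1.92% and 0.833%. Among cycling Eomes cells, which met the rule but for at least 2 mitotic counts, they were 47.4%, 68.0%, 69.2% and 64.9%. The members thus lay between these sets in every library and closer to the newborn neurons. Of all Eomes cells that met the other gates, 24.1%, 21.8%, 12.6% and 26.4% were cycling by this gate, with 95% intervals of 15.1% to 35.0%, 18.2% to 25.8%, 6.89% to 20.6% and 19.3% to 34.5%. These shares move with depth. With every cell thinned to 1500 counts they were 15.2%, 16.5%, 9.84% and 19.3%, and E14.5 wild type then lay below the library labelled E14.5 knockout.

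The members were then compared with 3 neighbouring sets, with library as a block, by edgeR's quasi-likelihood test on summed counts. The sets were 554 radial glia cells outside mitosis (at least 2 counts of Sox2 and Pax6, no Eomes, at most 1 count of Olig1 and Olig2), the 173 cycling Eomes cells and 454 newborn Neurod1 cells. Genes of the gates were left out of each test. Genes that go with a gate gene had to differ, so these results place the members in the lineage and are not independent of the rule. The median gene differed by 0.01, 0.02 and 0.02 on the log2 scale between the members and the 3 sets, in that order.

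Against radial glia, 773 of 8271 genes were higher in the members (9.35%) and 1064 lower (12.9%). Without P0 wild type the higher genes numbered 488 and without P0 knockout 503. Of the 12 intermediate progenitor markers tested, 11 rose, with a median log2 difference of 2.78 against 0.01 for all genes tested. Neurog2 was at 764, 1163, 528 and 293 CPM in the members and at 64.5, 135, 7.09 and 10.7 CPM in radial glia, a log2 difference of 3.93 (SE 0.36, adjusted p 0.000147). Neurod1 differed by 3.84, Nhlh1 by 3.75 and Mfap4 by 3.74. Btg2 was the exception on the list, at 382, 584, 340.4 and 297 CPM against 156, 201, 319 and 449 CPM, with an adjusted p of 0.333.

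The largest rise among genes with at least 50 CPM was that of Sstr2, from 5.37, 13.96, 17.7 and 20.5 CPM in radial glia, a log2 difference of 4.18 (SE 0.22, adjusted p 1.81e-05). Kif26b, a kinesin-like gene, rose by 3.58 and Plcxd2, a phospholipase-domain gene, by 3.39. Mfng, the Fringe glycosyltransferase that modifies Notch receptors, rose by 3.36, from 29.6, 31.1, 8.86 and 12.7 CPM in radial glia to 206, 290, 170.2 and 173 CPM. Of 18 Notch pathway genes tested, 4 rose (Dll1, Mfng, Rbpj and Hes6) and 6 fell (Notch1, Notch2, Lfng, Hes1, Hes5 and Hey2). Hes1, the main Notch effector, fell from 207, 127, 370.4 and 151 CPM in radial glia to 7.03, 15.4, 4.25 and 1.79 CPM, a log2 difference of -4.52 (SE 0.44, adjusted p 0.00019). Dll1, the Notch ligand, rose by 2.28 (SE 0.39, adjusted p 0.00335).

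All 16 radial glia markers tested fell, with a median log2 difference of -3.33. Fabp7, the brain fatty acid-binding protein of radial glia, stood at 1494, 1753, 13775 and 13846 CPM in radial glia and at 209, 222, 679 and 561 CPM in the members. Of 23 Wnt and growth factor receptor genes, 12 fell, and 7 of 11 immediate early genes fell. The 8 genes with the lowest differences were Cfap44, Cfap126, Rsph1, Fxyd1, Car2, Spef2, Lrriq1 and Cdkn1a, of which Cfap44, Cfap126, Rsph1 and Spef2 belong to motile cilia. Cfap44 was at 0 counts in all 4 member sums and between 42.5 and 86.0 CPM in radial glia. Ttr, the defining transcript of choroid plexus, was at 79198 and 52340.4 CPM in the E14.5 radial glia sets against 60.9 and 142 CPM in the members. All 5 astrocyte markers tested also fell (Aldh1l1, Slc1a2, Gja1, Apoe and Sparcl1), with a median of -3.04. The radial glia gate used no astrocyte gene, and 96 and 172 of its cells came from P0 wild type and P0 knockout. The set at birth may thus hold astrocyte-like cells. The part of choroid plexus, ependymal and astrocyte transcripts of the comparison set in these falls was not tested.

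Against newborn Neurod1 cells, 594 of 7847 genes were higher in the members (7.57%) and 802 lower (10.2%). Without E14.5 wild type the counts were 316 and 528, and they were 292 and 423 without the library labelled E14.5 knockout. Of 11 intermediate progenitor markers tested, 10 rose, with a median of 1.40 against 0.02 for all genes. Hes5 was at 1.79, 5.57, 10.2 and 18.98 CPM in newborn cells and at 145, 115, 177 and 243 CPM in the members, a log2 difference of 4.15 (SE 0.27, adjusted p 6.59e-07). Notch1 differed by 3.51 (SE 0.36, adjusted p 2.2e-05), and 8 of 12 Notch pathway genes rose. Tfap2c, a transcription factor of progenitors, differed by 3.90 and Btg2 by 2.76.

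Ccnd2 was at 1113, 1121, 1138 and 997 CPM in the members against 159, 174, 129 and 148 CPM in newborn cells, a log2 difference of 2.79 (SE 0.12, adjusted p 8.32e-09). It was thus near the same level in all 4 member sums. Of 14 cyclins, kinases and inhibitors of G1 tested, 10 rose, and of 18 S-phase genes 8 rose and all 18 lay above 0. Neurog2 differed by 3.69 (SE 0.14, adjusted p 4.29e-09), from 59.0, 87.0, 30.5 and 25.8 CPM in newborn cells. Of 16 newborn projection neuron genes, 12 fell and 3 rose. Neurod2, a bHLH factor of maturing neurons, stood at 546, 599.9, 611 and 509 CPM in the members and 1059, 1186, 1395 and 1033 CPM in newborn cells, a log2 difference of -1.07 (SE 0.10, adjusted p 9.08e-06).

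Genes of migration and later neuronal stages were mostly lower in the members than in newborn cells. Dab1, the adaptor of reelin signalling in migrating neurons, was at 39.9, 32.6, 42.5 and 37.5 CPM against 207, 272, 312 and 199 CPM, a log2 difference of -2.76. Of 20 migration and multipolar genes, 11 fell and 2 rose. Bcl11b, a factor of subcerebral neurons, fell by 1.41 on the log2 scale. The 8 lowest by the naming rule also held Tafa2, Thsd7a, Camk2b, Arpp21, Opcml, Runx1t1 and Plk2, between -4.02 and -2.78.

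Against cycling Eomes cells, 502 of 7291 genes were higher in the members (6.89%) and 711 lower (9.75%). Without E14.5 wild type the higher genes numbered 292 and without P0 knockout 328. The cycling set was the smallest (19, 104, 13 and 37 cells) and its cells were deeper, with medians of 11827, 3641, 6054 and 7714 counts. All 49 G2 and mitosis genes and 35 of 37 S-phase genes tested were lower in the members, as follows from the gate on mitotic genes. Of 12 intermediate progenitor markers, Neurod1, Nhlh1, Mfap4, Sstr2 and Rcor2 rose and Insm1 fell. Neurog2 did not separate the sets, at 764, 1163, 528 and 293 CPM against 746, 802, 553 and 624 CPM (log2 difference -0.14, SE 0.16, adjusted p 0.623). Btg2 did not either (adjusted p 0.784).

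Factors of the next steps were higher in the members than in their cycling counterparts. Nhlh2, a bHLH factor close to Nhlh1, led the rule-named genes at 206, 201, 19.1 and 159 CPM against 32.6, 57.6, 0 and 17.3 CPM, a log2 difference of 2.30 (SE 0.27, adjusted p 3.61e-07). Neurod1 was at 135, 258, 41.0 and 196 CPM in cycling cells, a difference of 1.60 (SE 0.17, adjusted p 5.92e-08). Of 16 newborn projection neuron genes 13 rose, and of 19 migration and multipolar genes 11 rose. Unc5d, for instance, was at 97.9, 81.0, 461 and 188 CPM in cycling cells and 225, 199.7, 708 and 366 CPM in the members. Ank3, the scaffold of the axon initial segment, rose by 1.97, the neurofilament-related gene Ina by 1.86 and the neuronal factor Myt1l by 1.80. Shb, Kcnq3, Actl6b and Dusp8 rose by between 1.90 and 1.95.

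Of 16 radial glia markers, 9 fell in the same comparison, and the cycling cells were the deeper set. With the gates applied to thinned counts and all counts summed, Sox2 and Hes5 were still called lower, Nes and Notch1 were no longer called, and Vim (0.41), Dbi (0.16), Fabp7 (0.11) and Ptprz1 (0.34) turned to higher in the members without a call. Hes5 was at 513, 107, 225 and 771 CPM in cycling cells, higher than in the members in all libraries but the one labelled E14.5 knockout, and fell by 1.10 on the log2 scale (SE 0.22, adjusted p 0.000614). Cdkn1c, a cyclin-dependent kinase inhibitor, rose by 1.39 (SE 0.26, adjusted p 0.000276), while Ccnd1 fell by 1.84 (SE 0.22, adjusted p 5.54e-07).

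**Figure D3:**
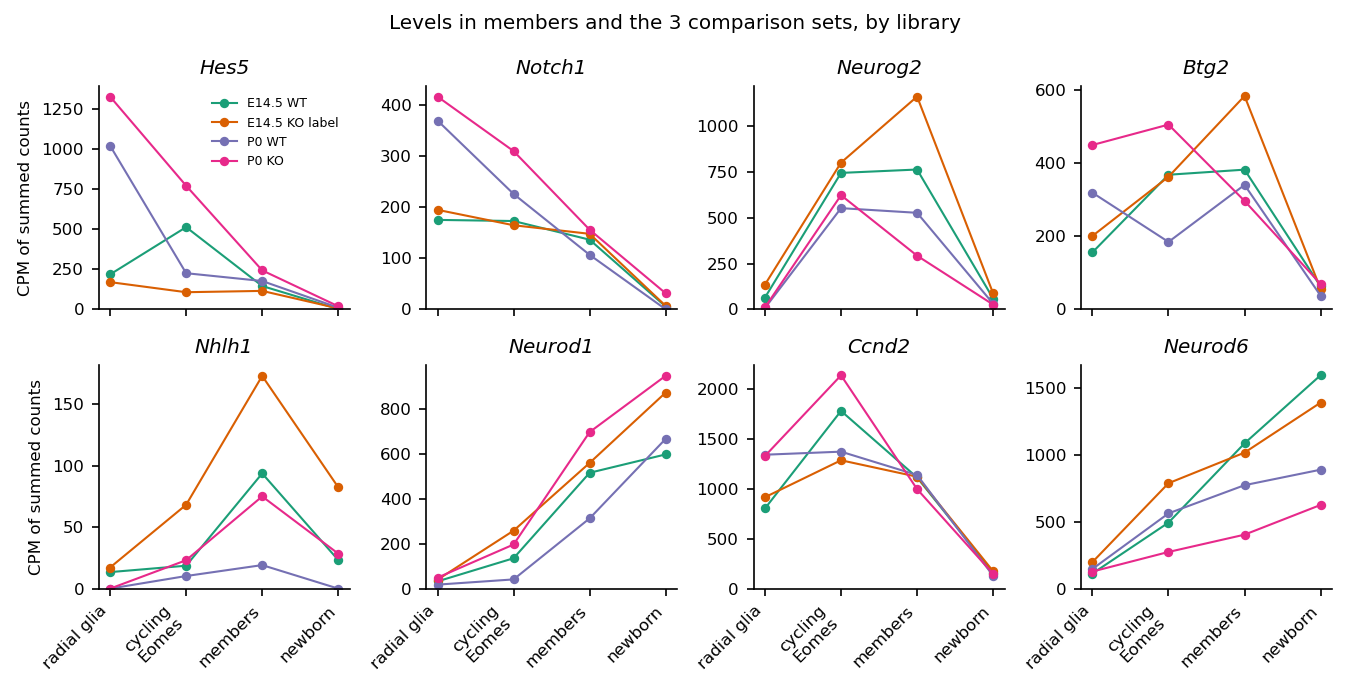
CPM of summed counts for 8 genes in radial glia, cycling Eomes cells, members and newborn Neurod1 cells, 1 line per library. Hes5 and Notch1 are lowest in the newborn cells, Neurog2 is high in cycling cells and members, Nhlh1 peaks in the members, and Neurod1 and Neurod6 are highest in the newborn cells, for which Neurod1 was a gate.

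The age comparison set the 2 E14.5 libraries against the 2 P0 libraries within the members (edgeR quasi-likelihood, n = 2 libraries per age, Benjamini-Hochberg adjustment over 7833 genes). At P0, 127 genes were higher (1.62%) and 103 lower (1.31%). Scaled by library totals in place of TMM factors, which moved the median of all genes from -0.02 to 0.05, 146 were higher and 76 lower. Each count moved by over 1.5 times when some libraries were left out. Without E14.5 wild type 373 were higher and 323 lower, without the library labelled E14.5 knockout 56 and 52, and without P0 wild type 159 were lower. Of the 230 genes called, 89 were called without the library labelled E14.5 knockout, and every one of the 229 still tested kept its direction.

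Of 20 migration and multipolar genes tested, Sema3c, Unc5d and Plxna4 rose at P0, with a median of 0.42, and the others did not pass. Unc5d and Plxna4 are also on the upper-layer list. Sema3c, a secreted class 3 semaphorin of callosal development, stood at 68.0 and 80.6 CPM at E14.5 and at 619 and 484 CPM at P0. The log2 difference was 2.80 (SE 0.24, adjusted p 0.000999), and Sema3c was called under all 15 alternatives, between 2.58 and 3.12. Unc5d stood at 225, 199.7, 708 and 366 CPM, a difference of 1.27 (SE 0.30, adjusted p 0.0494). Plxna4, a semaphorin co-receptor, stood at 234, 239, 645 and 509 CPM, a difference of 1.22 (SE 0.22, adjusted p 0.0174). Cux2, an upper-layer transcription factor, stood at 56.3, 54.9, 172 and 123 CPM, a difference of 1.34 (SE 0.28, adjusted p 0.028).

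Of 11 upper-layer genes tested, Cux2, Unc5d and Plxna4 rose, none fell, and all 11 lay above 0, with a median of 0.81 against -0.02 for all genes. At an unadjusted p under 0.05, 7 were higher and 0 lower, and DESeq2 called 3 higher and 0 lower. Of 10 deep-layer genes, Bcl11b and Rprm fell and none rose, but 5 lay above 0, with a median of -0.28. At an unadjusted p under 0.05, 2 of these were higher and 4 lower, and DESeq2 called 0 higher and 2 lower. Bcl11b (Ctip2) stood at 291, 542, 80.8 and 105 CPM, a log2 difference of -2.23 (SE 0.31, adjusted p 0.00558), and was called under all 15 alternatives. Rprm, a p53-target gene used as a marker of layer 6 neurons, stood at 429, 505, 87.2 and 207 CPM, a difference of -1.72 (SE 0.33, adjusted p 0.0224). Pou3f2 (Brn2), a POU factor of upper-layer progenitors, stood at 713, 491, 1783 and 1031 CPM and missed the threshold (adjusted p 0.0639). The calls of Unc5d and Cux2 were each lost under 6 alternatives, among them without the library labelled E14.5 knockout and without P0 wild type.

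Of 13 intermediate progenitor markers tested, Neurog2, Neurog1, Gadd45g and Elavl2 fell, none rose, and the median was -0.68. At an unadjusted p under 0.05, 7 of them were lower and 0 higher, and DESeq2 called 4 lower and 0 higher. Of 17 proneural and related bHLH factors tested, Neurog1 and Neurog2 fell and Id2 and Id3, inhibitors of bHLH factors, rose. Neurog2 differed by -1.30 (SE 0.29, adjusted p 0.0421), with a call lost under 6 alternatives, among them without the library labelled E14.5 knockout and without P0 knockout. Neurog1, its close relative, stood at 25.8, 53.1, 0 and 7.15 CPM, on 11, 62, 0 and 4 counts (adjusted p 0.0359, lost without the library labelled E14.5 knockout). Gadd45g stood at 317, 373, 100.0 and 188 CPM, a difference of -1.32 (SE 0.28, adjusted p 0.0343), and its call was lost without the library labelled E14.5 knockout and without P0 wild type. Elavl2, a neuronal RNA-binding protein gene, stood at 1203, 1354, 740.3 and 602 CPM, a difference of -0.999 (SE 0.21, adjusted p 0.031), with a call lost without the library labelled E14.5 knockout and without P0 knockout. Neurod1, Nhlh1 and Nhlh2 did not pass, with adjusted p of 0.854, 0.104 and 0.272. The sign of Neurod1 turned without P0 wild type (0.28), and Nhlh2 was far apart between the P0 libraries, at 19.1 and 159 CPM.

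Of 13 Notch pathway genes tested, Dll1 and Hey1 fell, with a median of -0.73. At an unadjusted p under 0.05, 8 were lower and 1 higher, and DESeq2 called 1 lower. Dll1 stood at 75.0, 199.7, 17.0 and 21.4 CPM, a log2 difference of -2.95 (SE 0.47, adjusted p 0.00928), and was called under all 15 alternatives. Hey1, a Notch target, stood at 35.2, 74.6, 14.9 and 14.3 CPM, a difference of -2.05 (SE 0.46, adjusted p 0.04), and its call was lost without the library labelled E14.5 knockout and without P0 knockout. Hes5 did not pass (adjusted p 0.203), at 145, 115, 177 and 243 CPM, with both P0 values above both E14.5 values. Notch1 overlapped between the ages, at 136, 147, 106 and 155 CPM.

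Of 15 heterochronic and temporal genes tested, Zbtb20 rose and Igf2bp1, Igf2bp3 and Dmrta2 fell, and the others did not pass. Zbtb20, a zinc-finger factor of late progenitors and of the hippocampus, stood at 1315, 959.9, 2733 and 3787 CPM, a log2 difference of 1.45 (SE 0.25, adjusted p 0.0125). Igf2bp1 (Imp1), an RNA-binding protein gene of early progenitors, stood at 152, 169.7, 29.8 and 35.7 CPM, a difference of -2.36 (SE 0.28, adjusted p 0.00274). Both were called under all 15 alternatives. Igf2bp3 fell by 2.73 (SE 0.58, adjusted p 0.0327) and Dmrta2, a patterning factor, by 1.22 (SE 0.25, adjusted p 0.028), and both calls were lost without the library labelled E14.5 knockout. The area and patterning factors Bcl11a and Tfap2c also fell, by 1.04 and 2.03.

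Of 10 imprinted genes tested, 3 fell, with a median of -0.72. Cdkn1c stood at 258, 522, 78.7 and 25.0 CPM, a log2 difference of -3.03 (SE 0.44, adjusted p 0.00616). Grb10, a growth-inhibiting adaptor, stood at 162, 248, 36.2 and 42.9 CPM, a difference of -2.45 (SE 0.29, adjusted p 0.00276). Meg3, a non-coding RNA, stood at 136, 204, 36.2 and 62.5 CPM, a difference of -1.85 (SE 0.31, adjusted p 0.0123), and its call was lost without the library labelled E14.5 knockout. Rian, which is transcribed from the same imprinted cluster as Meg3, was among the 8 genes with the largest falls, at 63.3, 60.9, 6.38 and 5.36 CPM.

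No gene of the S-phase list (24 tested) or of the G2 and mitosis list (16 of 49 tested) was called as changed with age by edgeR, by DESeq2 or at an unadjusted p under 0.05 (0 genes by each). Members of both ages were chosen for few mitotic counts, so the result for mitosis genes is not independent of the rule. The summed S-phase list stood at 1170, 1785, 1427 and 1917 CPM in the members. By the naming rule the largest rises were those of Nos1, neuronal nitric oxide synthase (2.34, 3.43, 168 and 102 CPM, log2 difference 5.29, SE 0.49, adjusted p 0.000999), and of Slco1c1, Stc2, Lingo1, Adam23, Gria1, Id3 and Nav2, between 3.11 and 4.44. Gria1 encodes an AMPA receptor subunit and Slco1c1 a thyroid hormone transporter. The largest falls were those of Ttr, Lpar1, St18, Rian, Cdkn1c, Dll1, Rhbdl3 and Igf2bp3. Ttr stood at 60.9, 142, 0 and 1.79 CPM and moved with the choroid plexus markers, whose part in it was not tested.

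Some rises rested on few cells. All 33 Id3 counts of P0 wild type and 87.0% of those of P0 knockout were in 1 cell each. Olig1, an oligodendrocyte-lineage factor, stood at 0, 0, 38.3 and 34.0 CPM, with 94.4% of the P0 wild-type counts in 1 cell. For Fabp7, 1 cell held 55.8% of the P0 wild-type counts. Without the 1 richest cell of each library, Fabp7 differed by 0.78 (adjusted p 0.0934) in place of 1.45 (SE 0.22, adjusted p 0.00645). Such cells move with the astrocyte and oligodendrocyte marker sums, and their part in the rises of glial genes was not tested further. Sema3c, Nos1, Zbtb20 and Plxna4 had no cell with over 20% of the counts in either P0 library.

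**Figure D4:**
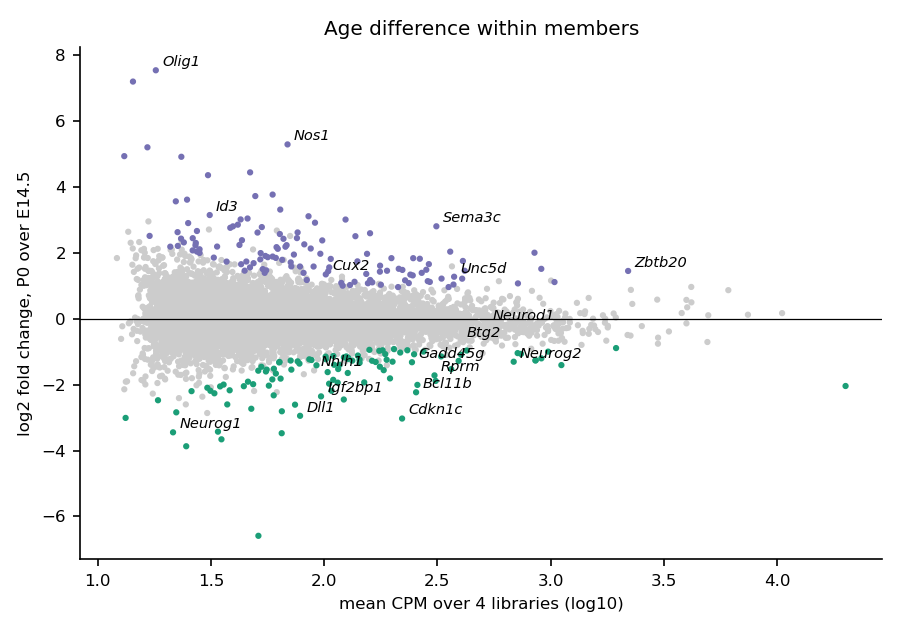
Log2 difference between P0 and E14.5 members against mean CPM (log axis), 1 point per gene, n = 2 libraries per age. Coloured points are the 127 genes higher and 103 lower at P0 by edgeR at an adjusted p under 0.05, with members of the fixed lists named.

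Between the genotype labels at E14.5, 339 of 7498 measured genes were at least 2-fold higher in the library labelled knockout with an interval clear of 0 (4.52%), and 195 were lower (2.6%). There is 1 mouse on each side, so no test was made. Xist, the X-inactivation RNA, had 0 counts against 620, and Ddx3y, a Y-linked helicase gene, 63 against 0. The median gene lay at 0.09. With the gates applied to thinned counts, 127 were higher and 105 lower.

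Notch and proneural genes were among those higher in the library labelled E14.5 knockout. Dll1 had 32 counts (75.0 CPM) in wild type and 233 (199.7 CPM) in the labelled knockout, a log2 ratio of 1.41 (95% interval 0.88 to 1.99), and 1.45 with the gates applied to thinned counts and all counts summed. Hey1 had 15 and 87 counts, a ratio of 1.08 (0.28 to 1.98). Neurog1 had 11 and 62 counts, a ratio of 1.04 (0.11 to 2.12), and Neurog2 326 and 1357 counts, a ratio of 0.61 (0.43 to 0.78), under 2-fold. Neurod1 differed by 0.12 (-0.10 to 0.35). Of 14 Notch pathway genes measured, 2 were called higher and none lower, with a median of 0.09, the same as for all genes.

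Cell-cycle genes differed too. Of 23 S-phase genes measured, 11 were higher in the library labelled E14.5 knockout and none lower, with a median of 1.09. Its members were shallower, at a median of 2717 counts against 6008. With the gates on thinned counts 3 of 23 were higher, with a median of 0.46. Pcna, the sliding clamp of replication, had 37 and 231 counts, a ratio of 1.19 (0.69 to 1.73) that was 0.42 with the gates on thinned counts. Cdkn1c had 110 and 609 counts, a ratio of 1.02 (0.72 to 1.32) that was 0.96. Cdk6, a G1 kinase, was lower, with 115 and 111 counts, a ratio of -1.50 (-1.89 to -1.11). Rcor2, a corepressor of the intermediate progenitor list, was also lower, with 259 and 318 counts, a ratio of -1.16 (-1.40 to -0.91).

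Immediate early genes Fos and Fosb were lower, at -1.65 and -1.66, and all 5 erythroid genes measured were higher, with a median of 2.37. One cell held 22.6% of the wild-type Fos counts and another 33.3% of those of Fosb. The genes picked by the naming rule, besides Xist and Ddx3y, were Kbtbd7, Rpp30, Apmap and Pip4k2a, each on 1 count in wild type, Uhrf1 on 1 and 34 counts, and the lower genes Tmem254, Atp5me, Erdr1y, Nfatc4 and Mpst. Nfatc4, a transcription factor that calcineurin activates, had 34 and 18 counts, a ratio of -2.37 (-3.28 to -1.50). Uhrf1, a maintenance factor of DNA methylation in S phase, had a ratio of 3.64 (1.06 to 8.98) that was 1.52 with the gates on thinned counts.

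At P0, 217 of 6444 measured genes were at least 2-fold higher in the knockout (3.37%) and 110 lower (1.71%), with the median gene at 0.01. The members of the P0 libraries had similar depths, at medians of 4566 and 4877 counts. Prox1, a homeobox factor of the dentate gyrus lineage among others, had 17 counts in wild type and 149 in the knockout, a log2 ratio of 2.88 (2.15 to 3.70). Lhx9, a LIM-homeobox factor, had 1 and 43 counts, a ratio of 5.17 (2.62 to 10.5). Nhlh2 had 9 and 89 counts, a ratio of 3.05 (2.07 to 4.23), and Nhlh1 9 and 42, a ratio of 1.97 (0.91 to 3.20). Neurod1 had 147 and 390 counts, a ratio of 1.16 (0.88 to 1.44), and Calb2, the calretinin gene, 16 and 101, a ratio of 2.41 (1.64 to 3.27).

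These genes went together in a share of the cells. Prox1 was counted in 11 of 90 wild-type members (12.2%, exact 95% interval 6.26% to 20.8%) and in 34 of 103 knockout members (33.0%, 24.1% to 43.0%). In the knockout, members with a Prox1 count held Calb2 at 457 CPM, Nhlh2 at 365 CPM, Lhx9 at 183 CPM and Neurod1 at 1159 CPM. Members without one held 17.1, 37.0, 14.2 and 424 CPM. The same cells were low in Pou3f2 (183 against 1533 CPM) and Unc5d (111 against 518 CPM). The 11 wild-type members with a Prox1 count held no Calb2, with Neurod1 at 360.0 CPM and Pou3f2 at 1120.0 CPM. At E14.5, Prox1 was counted in 13 wild-type members (21.7%) and 56 of the library labelled knockout (15.1%). In both, members with a Prox1 count were higher in Nhlh2 (378 against 157 and 391 against 152 CPM) and Lhx9 (199.7 against 51.3 and 225 against 146 CPM). Pou3f2 was lower in them (179 against 866 and 174 against 571 CPM), and Neurod1 near the same (515 against 516 and 552 against 562 CPM). Whether the tissue taken for the P0 libraries held equal parts of the areas that make Prox1-counted cells was not tested.

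With all Prox1-counted members left out of both P0 libraries, an alternative chosen after the data were seen, 110 genes were higher in the knockout and 104 lower. Neurod1 then had a ratio of 0.46, on 129 wild-type and 149 knockout counts. Chd7, a chromatin remodeller, had a ratio of 0.32 in place of 1.21. Nr2f2 (COUP-TFII), a factor of caudal cortex among others, stood at 2.96 against 2.98 with all members. Calb2 had a ratio of -1.16, on 16 wild-type and 6 knockout counts. Nhlh1 had a ratio of 0.26 on 6 and 6 counts, and Nhlh2 of 1.96 on 4 and 13. Calb2, Nhlh1 and Nhlh2 thus held fewer counts than a label call needs, so no direction is read from their ratios here. Of 12 intermediate progenitor genes measured, 3 were higher in the knockout and none lower, with a median of 0.21, and without Prox1-counted members the median was -0.13.

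Upper-layer genes leaned the other way at P0. Of 11 measured, 3 were called lower in the knockout, Pou3f1 and Mef2c among them, 10 lay below 0 and the median was -0.55, which was -0.41 without Prox1-counted members. Pou3f1 (Oct6), a POU factor, had 64 and 35 counts, a ratio of -1.12 (-1.76 to -0.51), which was -0.65 without those members. Mef2c rested on 1 cell with 71.4% of its wild-type counts. Unc5d, at -0.95, and Neurod6, at -0.94, were under 2-fold, and so was Neurog2, at -0.85 (-1.14 to -0.56).

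Single genes of the radial glia, deep-layer and cell-cycle lists differed as well. Vim, an intermediate filament of radial glia, had 32 and 114 counts, a ratio of 1.58 (1.00 to 2.20) that was 0.21 without Prox1-counted members, and Rprm 41 and 116 counts, a ratio of 1.25 (0.72 to 1.80). Of 21 S-phase genes, 5 were higher and none lower, with a median of 0.40. Without Prox1-counted members only 10 were measured, of which 1 was higher, with a median of -0.07. Cdkn1c had 37 and 14 counts, a ratio of -1.65 (-2.66 to -0.73), in contrast to its ratio of 1.02 at E14.5. The naming rule added the higher genes Ifi203, on 2 and 36 counts, and Tnfrsf19, on 3 and 36, and the lower genes Gria3, Mettl16, Dsel, Nrxn3 and Map7d2, between -1.79 and -1.71.

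**Figure D5:**
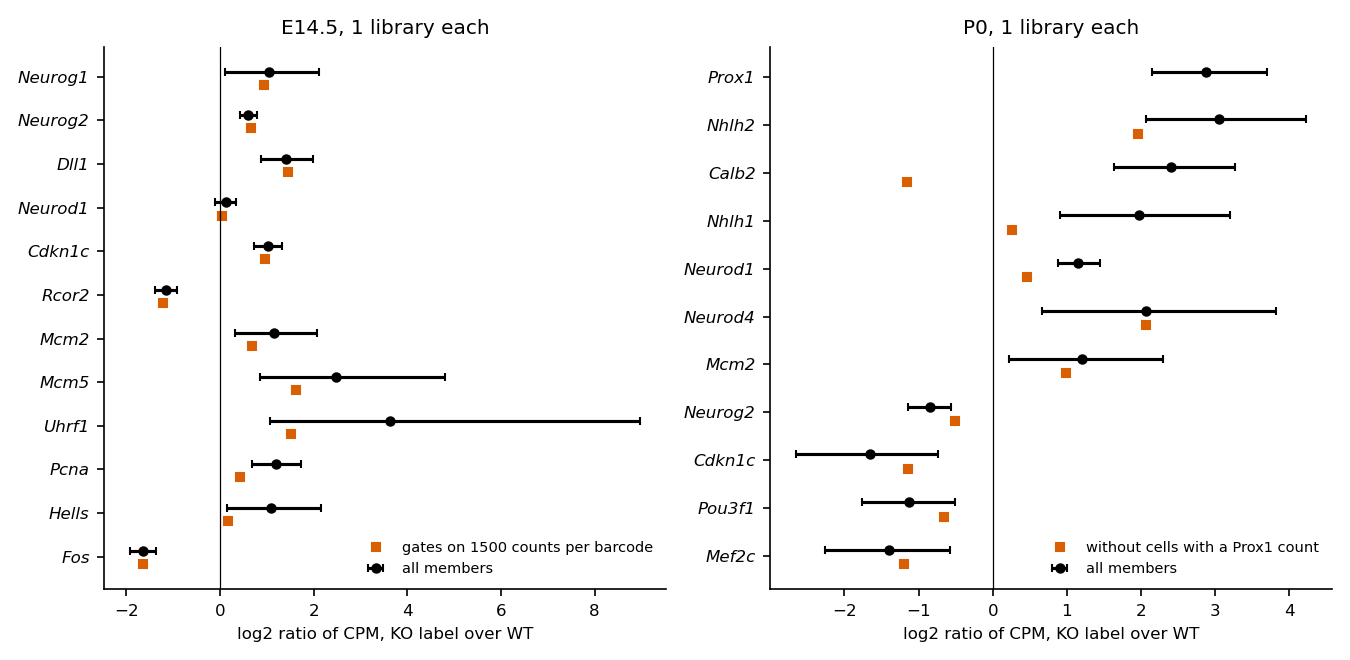
Log2 ratio of the library labelled knockout over wild type for genes of the fixed lists. At E14.5 the ratios from all counts are set against those with the gates applied to thinned counts, and at P0 against those without Prox1-counted members. S-phase genes move towards 0 in the first panel, and Calb2, Nhlh1 and Neurod1 move down in the second. Without Prox1-counted members, Calb2 and Nhlh1 rest on fewer counts than a label call needs.

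Some genes differed between the labels at both ages. Of the 6181 genes measured at both, 209 were higher at E14.5 (3.38%) and 189 at P0 (3.06%). There were 17 higher at both, or 8.13% of the E14.5 genes and 8.99% of the P0 genes. Of the same 6181 genes, 148 were lower at E14.5 (2.39%) and 92 at P0 (1.49%). There were 10 lower at both, or 6.76% and 10.9% of these, and 7 were called in opposite directions. The 17 included the replication genes Mcm2, Mcm4, Mcm5 and Hells and the globin genes Hba-a2 and Hbb-bt. Of these, Mcm2 stood at 32.8, 72.9, 25.5 and 59.0 CPM and Hba-a2 at 9.38, 94.3, 14.9 and 82.2 CPM. The erythroid sums were likewise higher in both libraries that carry a knockout label, and their part in the globin values was not tested. For the replication genes, the limits given above hold. Fewer S-phase genes were called at E14.5 with the gates on thinned counts, and fewer at P0 without Prox1-counted members. Mcm4 had a log2 ratio of 1.00 at P0, at the edge of the 2-fold limit, and the E14.5 pair also differs in sex and depth.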

How the data were processed

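Cells from the cortex of 4 mice were captured with the Asteria bead kit, as the labels' protocols state. The authors deposited raw counts, which are whole numbers for each gene and barcode. Per the submitters' processing notes, Seurat 5, R 4.3.2, FastQC 0.12.1 and the build GRCm39 were used, with no role stated. What aligned and counted the reads, how barcodes were called and whether reads were collapsed to molecules remains not given in the sources used here. Rows sharing a symbol (233 of 57126) were summed to 56893 symbols. A barcode was kept with at least 500 counts and 300 genes and with mitochondrial genes at most 10% of counts. Scrublet (scanpy 1.11.5) called 2, 0, 3 and 6 doublets, under 0.5%, so it was taken as not having worked, and removal of the top 5% of scores was an alternative. Counts were summed per library and set. Genes passing filterByExpr were tested with edgeR 4.0.16 (R 4.3.3, TMM, quasi-likelihood, adjusted p under 0.05), and DESeq2 1.42.0 was an alternative. These p-values measure only the spread between the samples. Label ratios of CPM carry conditional binomial 95% intervals. A label call needs 30 counts over both sums and a 2-fold ratio, and a sum of 0 is set to 3 counts. Intervals and floors cover counting error only. Thinning drew 1500 counts per cell. Sums and figures were made with pandas 2.3.3, scipy 1.17.1, numpy 2.4.6 and matplotlib 3.10.9 under Python 3.11.15, and the procedures were tested on simulated data.

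The members and the 27 gene lists were chosen with earlier results of these data known. Beyond the lists, the text names the 8 highest and 8 lowest genes past 0.05 with values that do not overlap and at least 50 CPM, and for labels the 6 highest and lowest with no cell over 20% of the higher sum. Predicted, mitochondrial and ribosomal genes were not named, and some listed genes are not reported here. A gene singled out elsewhere (Rian, Calb2, Lhx9, Nr2f2, Slc17a6) was described after its values were seen. Alternatives were other gates, depths, filters, scalings and left-out libraries.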

Additional observations from a re-analysis of the deposited data

Results flagged for a closer look

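Cdkn1c, a cyclin-dependent kinase inhibitor, moved in opposite directions between the labels at the 2 ages. The members of the library labelled E14.5 knockout held more of it than those of E14.5 wild type, with a log2 ratio of 1.02 (522 against 258 CPM). The members of the P0 knockout held less than those of P0 wild type, with a log2 ratio of -1.65 (25.0 against 78.7 CPM). With 1 mouse per group, the difference between the ratios was not tested. The E14.5 pair also differs in sex and depth, and its labelled knockout holds Tsku counts.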

How the results depend on the processing

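The member share rose with a lower Eomes limit and fell with a higher one. For the library labelled E14.5 knockout, P0 wild type and P0 knockout it was 11.7%, 10.5% and 9.33% at 1 Eomes count, 8.04%, 6.88% and 5.57% at 3, and 7.92%, 5.26% and 4.95% after thinning, and with 0 mitotic counts the first was 7.77%. In the tests, gates on thinned counts with thinned sums called 30 genes higher and 15 lower with age, 84 and 123 against cycling cells, 91 and 134 against newborn cells and 194 and 205 against radial glia. With all counts of those cells summed, an alternative added after the data were seen, like the one without Prox1-counted members and the age test without each richest cell, the calls were 81 higher with age, 307 higher against cycling cells, 275 and 463 against newborn cells and 703 lower against radial glia. DESeq2 called 55 lower with age, 159 and 457 against cycling cells, 271 and 426 against newborn cells and 478 higher against radial glia. With no filter, 283 and 298 were called with age, 905 higher against newborn cells and 2199 lower against radial glia. The genotype label as a covariate gave 226 and 188 with age. Leaving out 1 library gave 56 to 373 higher and 52 to 323 lower with age, 292 to 386 higher against cycling cells, 292 to 558 higher and 423 to 806 lower against newborn cells and 488 to 565 higher against radial glia, and a lone library of an age was assumed to vary like the other age. No replicate block, in place of the library block, gave 115 and 436 against cycling cells, 184 and 297 against newborn cells and 439 higher against radial glia. For age and labels, no paired analysis was possible because no label numbers replicates. Label calls at E14.5 were 127 and 105 after thinning, 69 and 60 at 100 counts or more and 541 higher without each richest cell. At P0 they were 25 and 37, then 27 and 9, with 392 and 221 at 10 counts or more, 110 higher without Prox1-counted members and 133 higher with gates on thinned counts. With age, signs turned for Neurod2 (0.0106 without top doublet scores), and leaving out 1 library spanned -0.265 to 0.0252 for Neurod2, -0.0463 to 0.327 for Sstr2, -0.85 to 0.28 for Neurod1 and -1.44 to 1.40 for Prox1, none of them called. Against cycling cells they turned for Vim (0.42 and 0.41), Dbi (0.16), Fabp7 (0.11) and Ptprz1 (0.34) with thinned gates. They turned likewise for Nhlh2 (-0.39 and -0.21) and Ttyh1 (-0.37) against newborn cells and Myt1l (-0.12) against radial glia, and for Tnc at P0 (0.0776 without its richest cell). Of 858 re-runs of the 59 named age results, 754 kept direction and side of the threshold.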

Other observations

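Of 10 immediate early genes tested with age, Egr1 rose and Jund fell at P0, and of 9 dissociation and heat shock genes Hspa5 and Hsph1 fell. Egr1, an immediate early factor, stood at 497, 415, 1604 and 1122 CPM and was higher at P0 (log2 difference 1.51, SE 0.24, edgeR adjusted p 0.00928), while Fos, at 549, 175, 872 and 768 CPM, did not pass (adjusted p 0.177). The endoplasmic reticulum chaperone gene Hspa5 stood at 560.3, 519, 266 and 264 CPM and was lower at P0 (log2 difference -1.09, SE 0.21, adjusted p 0.023). Fgfr1, a fibroblast growth factor receptor, stood at 61.0, 49.7, 138 and 168 CPM and was higher at P0 (log2 difference 1.44, SE 0.27, adjusted p 0.0195). Ephb1, an ephrin receptor of the migration list, had more counts under the knockout label at both ages, with log2 ratios of 1.33 (0.32 to 2.53) at E14.5 and 2.01 (1.20 to 2.92) at P0, and the E14.5 ratio was 0.25 with gates on thinned counts.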
